A study of Homo sapiens with 8 samples.

Results

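BEAS-2B cells, human bronchial epithelium immortalised as a cell line and used as a model of the airway, were profiled by RNA-Seq, and the genes described here are those that stood lower in cells still exposed to nickel than in any other group. They were selected on the deposited RPKM values (reads of a gene scaled to transcript length and to library depth). A gene was taken when its RPKM was at least 1 in each of the 6 libraries of untreated (UT), nickel-washed-out (Ni-W) and HCl3 cells, and when its larger value in the 2 nickel-exposed (Ni-E) libraries was at most 0.72 times the smallest of those 6 values. This gave 97 genes of the 10639 with RPKM of at least 1 in all 6 libraries, among 25411 listed genes. UT cells received no nickel. Ni-E cells grew for 6 weeks with 100 µM of the soluble salt NiCl2 and were collected as an exposed population. Ni-W cells had the same exposure and were then grown without nickel for more than 6 months from a colony founded by a single cell, so the group is 1 clonal population. HCl3 cells carry the same treatment text as Ni-W, while their time without nickel and their relation to the Ni-W population are not given in the labels. Each group has 2 libraries. In the labels an experiment number stands beside Ni-E (2 for each library) and HCl3 (3 and 4) but not beside UT or Ni-W, so experiment and group cannot be told apart.

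As background, nickel ions are weak mutagens and are known to act on cells through metal-dependent enzymes, among them the iron- and oxoglutarate-dependent dioxygenases that hydroxylate HIF proteins and demethylate histones and DNA. Epithelial cells in culture hold contacts with matrix through actin, integrins and secreted glycoproteins. The TGF-beta and BMP ligands bind paired receptor kinases that phosphorylate SMAD proteins, which enter the nucleus and switch on target genes such as the ID family of transcriptional repressors.

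Library totals lay between 26383920 and 45692298 counts, which the smallest count behind a member's value (3 reads, for LOC100130417 in Ni-E) can be read against. The median of the smallest counts over the members was 269 reads, and intervals from counts would cover counting error only. Of the 8 bronchial epithelial markers, KRT7, KRT8 and KRT18 were high in every group (group means between 146 and 479 RPKM) and EPCAM was near 1 RPKM, while CDH1, KRT5, TP63 and KRT19 stayed below 1 RPKM in every library. The summed level of the 8 epithelial markers ran from 602 to 636 RPKM for UT, from 579 to 794 for Ni-E, from 947 to 972 for Ni-W and from 935 to 996 for HCl3, and so stood above UT after wash-out, as did the median member. The summed level of the 8 fibroblast or mesenchymal markers ran from 1671 to 1768 RPKM for UT, from 1048 to 1194 for Ni-E, from 1064 to 1243 for Ni-W and from 1793 to 1807 for HCl3. It was carried by VIM, THY1, CDH2 and PDGFRB, and DCN, LUM, PDGFRA and COL3A1 stayed below 1 RPKM. Endothelial and airway secretory or ciliated markers were at or near 0. Of the 3 leukocyte markers PTPRC and CD3E were at or near 0, while CD14 had group means of 1.43 RPKM for UT, 1.51 for Ni-E, 3.5 for Ni-W and 3.46 for HCl3. The fibroblast sum was lower in Ni-E and in Ni-W than in UT, whereas the rule required the members to be lowest in Ni-E. The part of these marker levels in the levels of the members was not tested, and in bulk RNA fewer cells of a kind and less RNA per cell cannot be told apart.

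Relative to the mean of the UT libraries, the median member stood at a log2 ratio of -0.92 and -0.82 in the Ni-E libraries, 0.37 and 0.41 in the Ni-W libraries, and 0.39 and 0.36 in the HCl3 libraries. Members therefore fell below UT in Ni-E by the selection, and lay mostly above UT, not at its level, in both groups grown without nickel. Of all counts in a library, the members together took 0.831 and 0.900% with UT, 0.434 and 0.452% with Ni-E, 1.12 and 1.18% with Ni-W and 1.16 and 1.15% with HCl3. The selected fall from UT to Ni-E, taken on mean RPKM, ranged from 32.2 to 84.6% with a median of 47.1%. DESeq2 called 84 of the 97 lower in Ni-E against UT (adjusted P under 0.05 and at least 1.5-fold), where 2.1% of 14140 tested genes were called lower and 3.84% higher. The selection used that contrast, so nothing is read from this count. The 13 members not called had a median mean normalized count of 124 against 585 for those called.

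**Figure D1:**
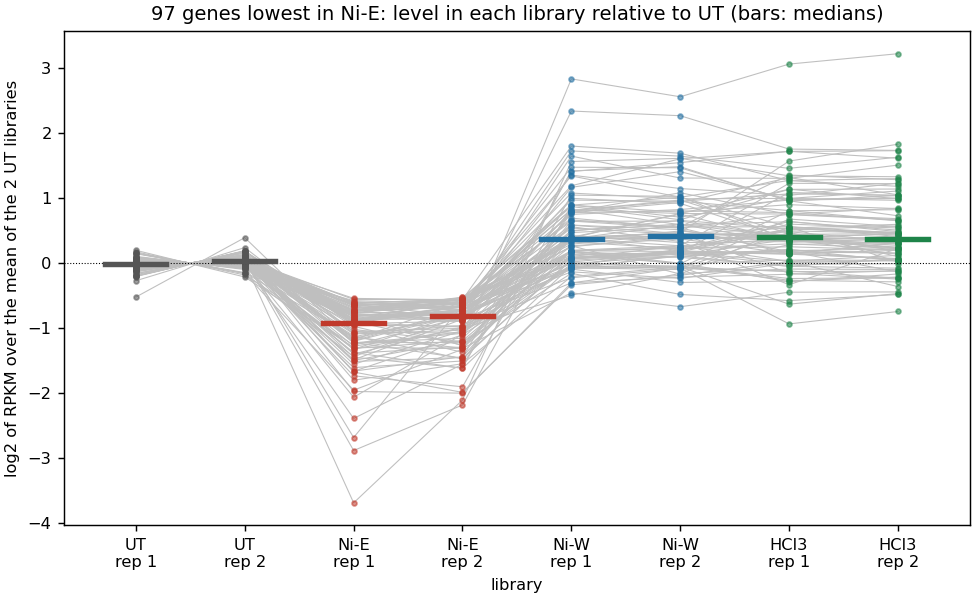
Level of each of the 97 members in each library, as log2 of its RPKM over the mean of the 2 UT libraries (y axis), with libraries on the x axis. Dots and grey lines are genes and thick bars are medians, which lie at -0.92 and -0.82 in Ni-E and between 0.36 and 0.41 for Ni-W and HCl3.

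Most members were modestly expressed. The median UT level was 3.71 RPKM against 12.9 RPKM over the 10639 genes that could have been selected, and 56 members lay below 5 RPKM while 9 lay above 50 RPKM. The 6 highest in UT were S100A10, HNRNPH1, IGFBP3, TAGLN, THBS1 and IL7R. S100A10, a calcium-binding-family partner of annexin A2 at the plasma membrane (hg19 chr1:151955386-151966714), read 320 and 311 RPKM for UT, 172 and 182 for Ni-E, 422 and 391 for Ni-W and 395 and 420 for HCl3. The Ni-W and HCl3 libraries all stood above both UT libraries, by 0.33 ± 0.10 on the log2 scale (± SE throughout, adjusted P = 0.00359) and 0.31 ± 0.09 (adjusted P = 0.00202), both short of 1.5-fold. HNRNPH1, a splicing regulator that binds G-rich RNA (chr5:179041179-179050722), read 245 and 241 RPKM for UT, 139 and 138 for Ni-E, 232 and 233 for Ni-W and 202 and 198 for HCl3. It was thus among the members that came back to somewhat less than the UT level, with -0.34 ± 0.08 in HCl3 (adjusted P = 0.000433) and -0.10 ± 0.09 in Ni-W (adjusted P = 0.452).

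TAGLN, the actin-binding protein transgelin of contractile cells (chr11:117070040-117075508), had 179 and 182 RPKM for UT, 61.1 and 87.3 for Ni-E, 216 and 233 for Ni-W and 235 and 246 for HCl3. All 4 of its values after wash-out lay above both UT values, and its changes against UT stayed under 1.5-fold after wash-out (0.28 ± 0.10 in Ni-W, adjusted P = 0.0202). IL7R, the receptor chain for interleukin 7, had 80.4 and 95.7 RPKM for UT, 45.9 and 47.3 for Ni-E, 124 and 133 for Ni-W and 116 and 113 for HCl3. IL7, its ligand, was also selected, at 2.77 and 2.24 RPKM for UT, 1.46 and 1.34 for Ni-E, 2.34 and 2.03 for Ni-W and 2.06 and 2.15 for HCl3. The receptor ended above UT (0.51 ± 0.11, adjusted P = 4.82e-05 in Ni-W, a change of less than 1.5-fold) and the ligand did not (-0.27 ± 0.26 in Ni-W, adjusted P = 0.481).

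The members with the lowest ratio of Ni-E to the other libraries were LOC100130417, DIO2, NOV, VGLL2, GABRE, EPHA4, TMTC1 and IGFBP3. DIO2, the deiodinase that turns thyroxine into its active form (chr14:80663868-80697397), had 17.9 and 17.9 RPKM for UT, 1.38 and 4.13 for Ni-E, 52.5 and 54.3 for Ni-W and 45.1 and 44.6 for HCl3. It had the largest fall among the members, 84.6%, and its Ni-E libraries differed from each other by more than those of most members. NOV, a matricellular CCN-family protein, had 3.00 and 3.08 RPKM for UT, 0.91 and 0.81 for Ni-E, 6.25 and 6.16 for Ni-W and 3.86 and 3.66 for HCl3. VGLL2, a cofactor of TEAD transcription factors (chr6:117586721-117594728), had 1.22 and 1.20 RPKM for UT, 0.23 and 0.41 for Ni-E, 2.11 and 2.36 for Ni-W and 1.65 and 1.37 for HCl3.

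Of the remaining lowest-ratio members, EPHA4, a receptor for ephrins, was not called against UT after wash-out (3.15 and 3.33 RPKM for UT, 1.02 and 1.19 for Ni-E, 4.19 and 3.88 for Ni-W, 4.18 and 3.96 for HCl3). GABRE, a subunit of the GABA-A receptor, went from 2.19 and 2.03 RPKM for UT and 0.69 and 0.74 for Ni-E to 3.60 and 3.67 for Ni-W and 3.60 and 3.30 for HCl3. TMTC1, a transmembrane mannosyltransferase of the endoplasmic reticulum, had 1.22 and 1.36 RPKM for UT, 0.45 and 0.47 for Ni-E, 3.41 and 3.75 for Ni-W and 4.23 and 3.93 for HCl3. Both GABRE and TMTC1 ended above UT in each library of the groups grown without nickel. The lowest ratio, 0.228, belonged to LOC100130417, a non-coding transcript whose Ni-E values of 0.16 and 0.26 RPKM rest on as few as 3 reads.

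The 17 secreted ligands, matrix proteins and enzymes had a median fall of 51.4% in Ni-E, and all 17 were called lower in the contrast used for selection. IGFBP3, which binds insulin-like growth factors in the medium (chr7:45951844-45960871), had 177 and 198 RPKM for UT, 68.6 and 61.1 for Ni-E, 500 and 523 for Ni-W and 362 and 385 for HCl3. THBS1, thrombospondin 1, an adhesive matrix glycoprotein that can activate latent TGF-beta (chr15:39873280-39889668), had 112 and 147 RPKM for UT, 55.3 and 57.9 for Ni-E, 169 and 219 for Ni-W and 283 and 256 for HCl3. TNFRSF11B, osteoprotegerin, the soluble decoy receptor for RANK ligand, had 5.83 and 5.67 RPKM for UT, 1.37 and 2.68 for Ni-E, 29.0 and 27.6 for Ni-W and 19.3 and 19.0 for HCl3. IGFBP3 and TNFRSF11B were called higher than UT in both groups grown without nickel and THBS1 in HCl3, while BMP4, VEGFC, SEMA3C, ITGBL1, CCBE1, IL7 and ADAMTS6 of the same group were not called against UT in either Ni-W or HCl3. MDK, the heparin-binding growth factor midkine, had 25.1 and 19.6 RPKM for UT, 9.28 and 12.4 for Ni-E, 69.6 and 55.1 for Ni-W and 54.9 and 63.2 for HCl3, and was also called higher in both.

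**Figure D2:**
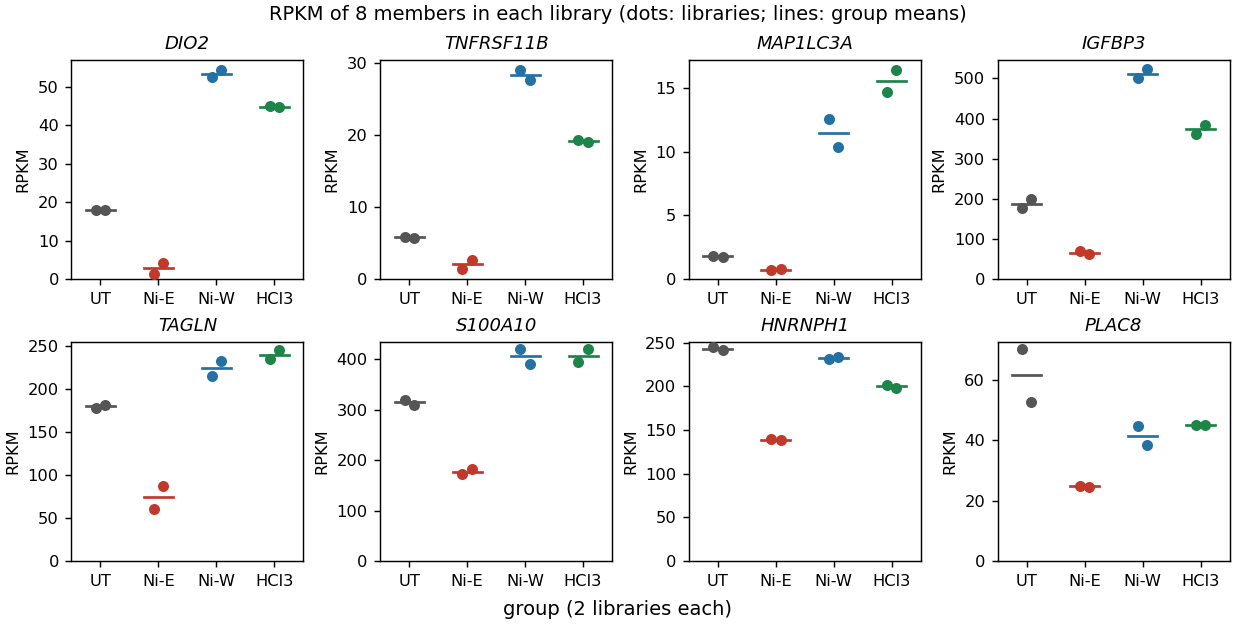
RPKM (y axis) of 8 members in the 2 libraries of each group (x axis), with dots for libraries and lines for group means. DIO2, TNFRSF11B, MAP1LC3A and IGFBP3 stood above UT in every Ni-W and HCl3 library, whereas PLAC8 stood below UT in all 4.

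The 15 receptors and other membrane proteins had a median fall of 55.3%. Besides IL7R, EPHA4, GABRE and TMTC1 they include OXTR, the oxytocin receptor, which had 40.8 and 53.4 RPKM for UT, 19.97 and 22.17 for Ni-E, 61.7 and 79.0 for Ni-W and 59.5 and 55.6 for HCl3. SDC2, a heparan sulfate proteoglycan of the cell surface, had 8.46 and 8.91 RPKM for UT, 3.28 and 4.37 for Ni-E, 15.2 and 16.7 for Ni-W and 18.1 and 17.8 for HCl3. LEPR, the leptin receptor, had 1.59 and 1.60 RPKM for UT, 1.05 and 0.99 for Ni-E, 3.11 and 3.07 for Ni-W and 2.78 and 2.50 for HCl3. For SDC2 and LEPR all 4 libraries grown without nickel lay above UT. Of the 15 membrane members, 8 were called higher in Ni-W and 8 in HCl3. Called higher in Ni-W and HCl3 were 11.1% and 11.4% of all genes tested. The shares were 6.71% and 6.65% of the genes that could have been selected, and 29.9% and 30.9% of all members.

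The 11 members of the cytoskeleton, membrane shape and calcium-binding group had a median fall of 43.2%. CAV1, the main coat protein of caveolae, had 76.6 and 83.9 RPKM for UT, 49.9 and 44.3 for Ni-E, 91.2 and 93.5 for Ni-W and 95.1 and 92.0 for HCl3, with differences from UT after wash-out of 0.13 ± 0.10 (adjusted P = 0.357) and 0.14 ± 0.09 (adjusted P = 0.290). AHNAK, a very large scaffold protein that binds S100A10, had 70.5 and 79.3 RPKM for UT, 39.5 and 37.7 for Ni-E, 60.5 and 64.3 for Ni-W and 66.2 and 68.8 for HCl3. AHNAK thus came back to below UT in Ni-W (-0.31 ± 0.10, adjusted P = 0.0115, under 1.5-fold) where its partner S100A10 came back to above it. TNS1, tensin 1, which links actin to integrins, had 2.19 and 2.02 RPKM for UT, 1.13 and 1.33 for Ni-E, 3.89 and 4.23 for Ni-W and 5.06 and 5.16 for HCl3.

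The 14 genes of transcription and chromatin had a median fall of 42.2% and included 3 ZNF genes (ZNF365, ZNF514 and ZNF788), the ARID-domain factor ARID5B, the histone methyltransferase KMT2C and ID2. ARID5B had 14.4 and 16.0 RPKM for UT, 6.24 and 7.29 for Ni-E, 15.88 and 17.01 for Ni-W and 16.6 and 15.9 for HCl3, and KMT2C had 3.53 and 4.12 for UT, 2.08 and 2.33 for Ni-E, 3.79 and 4.11 for Ni-W and 3.68 and 3.61 for HCl3. Neither was called against UT after wash-out, with log2 differences from UT of at most 0.12 in size. ZNF788 had 3.70 and 3.63 RPKM for UT, 2.34 and 2.08 for Ni-E, 7.28 and 6.90 for Ni-W and 4.73 and 4.27 for HCl3, and was called higher than UT in Ni-W. Of the 14 genes, 3 were called higher than UT in Ni-W and 1 in HCl3. The shares were 11.1% and 11.4% of all genes tested, and 6.71% and 6.65% of those that could have been selected. The HCl3 count is thus near the background.

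The 10 transcripts of RNA processing and non-coding RNA had a median fall of 55.6%. The only call against UT after wash-out was that of LINC01085, lower in HCl3, which held in 4 of 12 alternative fits. Over all genes tested 11.1% were called higher and 4.95% lower in Ni-W, and 11.4% and 3.84% in HCl3. With 10 transcripts nothing is read from this count. MIR503HG, the host transcript of miR-503 beside miR-424 (chrX:133677407-133680660), had 4.49 and 4.91 RPKM for UT, 2.01 and 1.70 for Ni-E, 4.82 and 5.15 for Ni-W and 5.30 and 4.26 for HCl3. Its Ni-W and HCl3 values lay around those of UT. MIR3655 is listed as a gene of its own inside IK (chr5:140027429-140027511), at 12.4 and 23.3 RPKM for UT, 7.61 and 7.64 for Ni-E, 15.9 and 12.7 for Ni-W and 11.9 and 12.7 for HCl3. IK, which encodes a spliceosome protein, had 60.0 and 62.1 RPKM for UT and 51.3 and 55.5 for Ni-E, so the reads of MIR3655 and of IK transcripts cannot be told apart, and the UT libraries of MIR3655 differed widely. Mature miRNAs are too short for these libraries and were not measured. Their sequences (RefSeq, GRCh38.p14) are shown because MIR503HG and the MIR3655 entry were selected, while IK itself was not. The seed, bases 2 to 8, is in capitals.
hsa-miR-503-5p: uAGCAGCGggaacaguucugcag
hsa-miR-424-5p: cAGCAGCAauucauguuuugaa
hsa-miR-3655: gCUUGUCGcugcgguguugcu

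Several members share genomic sequence with another gene. Opposite-strand overlap with a listed gene was found for 13 members (13.4%, against 17.2% of the 10639 selectable genes), and because use of strand in counting is not stated, reads from such pairs cannot be told apart. RGMB and RGMB-AS1 are such a pair. RGMB, a BMP co-receptor, had 26.5 and 30.4 RPKM for UT, 15.2 and 11.8 for Ni-E, 27.5 and 32.6 for Ni-W and 39.9 and 39.0 for HCl3, and RGMB-AS1 had 2.08 and 1.93 for UT, 0.77 and 0.65 for Ni-E, 1.94 and 1.89 for Ni-W and 2.77 and 2.14 for HCl3. After wash-out neither was called against UT. ZBED6 lies within ZC3H11A, which had 16.2 and 15.2 RPKM for UT and 11.5 and 11.6 for Ni-E, while ZBED6 itself had 6.32 and 6.28 for UT and 2.95 and 3.07 for Ni-E. TPM3P9, DPY19L2, PDE4DIP and AHSA2 have near-identical relatives or copies, and their values are uncertain for that reason.

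A group of members belongs to the TGF-beta and BMP pathways. In the list of TGF-beta pathway and target genes, 4 of 22 selectable genes were members (ID2, SMAD3, SMAD6 and THBS1), 18.2% against 0.912% of all selectable genes. Lists and members were both chosen with results of these data known, so this share is a description. Of the 29 genes of that list tested in Ni-E against UT, 4 were called lower and 1 higher. Over all genes tested 2.1% were called lower and 3.84% higher. The median log2 fold change of the list was -0.16 against -0.0024 over all genes. The 4 include the members ID2, SMAD3 and THBS1, selected on this contrast, and the median includes the members, so nothing is read from either. Among list genes that were not members, TGFB2, a TGF-beta ligand, had 26.1 and 31.3 RPKM for UT and 14.4 and 21.8 for Ni-E (-0.72 ± 0.16, adjusted P = 0.000313), and LTBP1, which holds latent TGF-beta in matrix, went the other way (0.77 and 0.87 RPKM for UT, 1.73 and 1.94 for Ni-E, 1.11 ± 0.22, adjusted P = 2.72e-05).

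Among the SMAD proteins, the selection took SMAD3, a receptor-activated SMAD of the TGF-beta branch, SMAD9, a receptor-activated SMAD of the BMP branch, and SMAD6, which inhibits BMP signalling. SMAD3 (chr15:67458493-67487533) had 25.0 and 24.4 RPKM for UT, 15.3 and 16.1 for Ni-E, 41.3 and 43.5 for Ni-W and 48.1 and 49.0 for HCl3. SMAD6 had 3.98 and 3.67 RPKM for UT, 2.47 and 2.61 for Ni-E, 6.96 and 6.05 for Ni-W and 8.36 and 8.39 for HCl3. SMAD9 had 1.88 and 1.99 RPKM for UT, 1.09 and 1.04 for Ni-E, 3.33 and 4.08 for Ni-W and 3.23 and 3.06 for HCl3. The rule fixed Ni-E as the lowest group, and for each of these 3 genes all 4 libraries grown without nickel lay above both UT libraries.

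The other SMAD genes listed did not meet the rule. SMAD4, the common partner, had 14.0 and 15.6 RPKM for UT and 13.3 and 13.8 for Ni-E, and SMAD7, the inhibitor of the TGF-beta branch, had 4.57 and 5.71 for UT, 4.10 and 3.68 for Ni-E, 8.79 and 10.1 for Ni-W and 8.53 and 7.19 for HCl3. Not meeting the rule is not the same as missing the call, since the member SMAD6 was itself not called in Ni-E against UT. SMAD1, SMAD2 and SMAD5 were not called in Ni-E against UT (log2 fold changes of 0.36 ± 0.15, -0.10 ± 0.12 and -0.14 ± 0.12, adjusted P = 0.115, 0.686 and 0.555), and neither were SMAD4 (-0.18 ± 0.11, adjusted P = 0.334) and SMAD7 (-0.45 ± 0.18, adjusted P = 0.0917). After wash-out SMAD7 was higher than UT in Ni-W (0.80 ± 0.16, adjusted P = 3.97e-06).

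Upstream and downstream of the SMADs, BMP4, a BMP ligand (chr14:54416455-54423554), had 15.4 and 16.7 RPKM for UT, 9.25 and 9.33 for Ni-E, 14.6 and 13.6 for Ni-W and 16.0 and 16.5 for HCl3. ID2, a dominant-negative helix-loop-helix factor and SMAD target (chr2:8822113-8824583), had 5.56 and 5.35 RPKM for UT, 3.19 and 3.68 for Ni-E, 18.9 and 17.5 for Ni-W and 13.1 and 12.3 for HCl3. ATOH8, a helix-loop-helix factor, had 12.2 and 11.3 RPKM for UT, 4.68 and 5.83 for Ni-E, 13.2 and 12.5 for Ni-W and 11.3 and 12.3 for HCl3. BMP4 and ATOH8 were not called against UT after wash-out, with both BMP4 values for Ni-W below both UT values, whereas ID2 was called higher in both groups. Of the ID2 relatives, ID1 had 17.1 and 14.2 RPKM for UT and 22.0 and 12.3 for Ni-E, and ID3 had 97.2 and 80.6 for UT and 88.4 and 73.6 for Ni-E, so for both the groups overlapped. After wash-out ID1 was also called higher than UT, by 0.73 ± 0.15 in Ni-W (adjusted P = 2.03e-05) and 0.72 ± 0.15 in HCl3 (adjusted P = 1.50e-05).

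**Figure D3:**
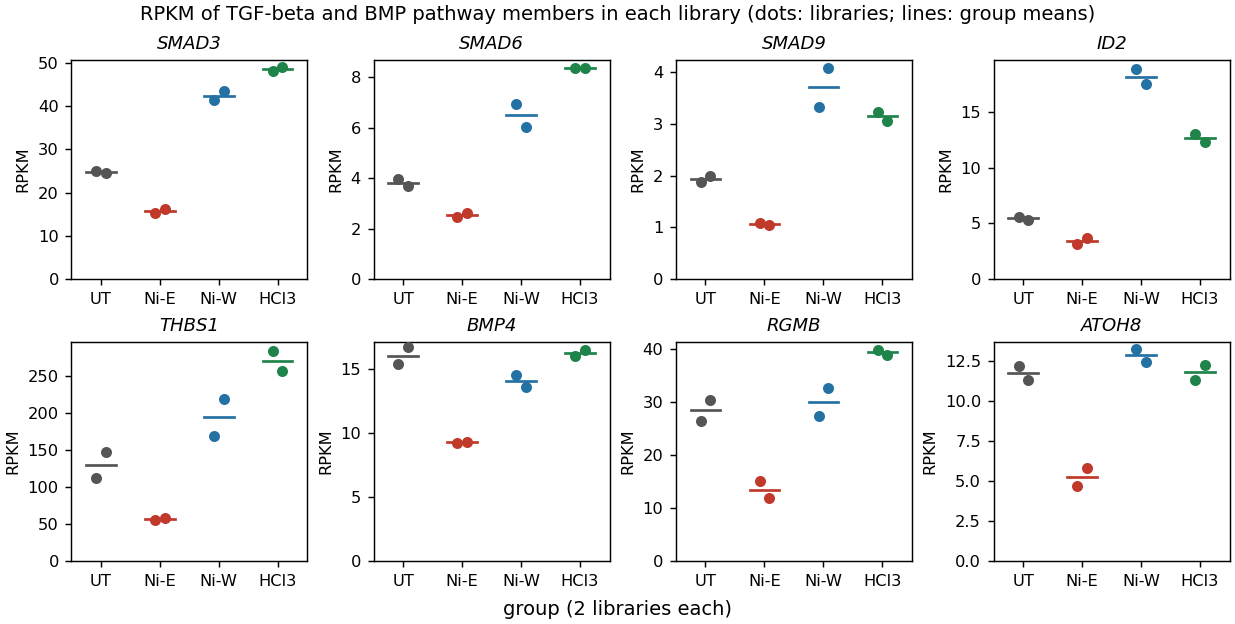
RPKM (y axis) of 8 members named for the TGF-beta and BMP pathways, in the 2 libraries of each group (x axis), with dots for libraries and lines for group means. SMAD3, SMAD6, SMAD9, ID2 and THBS1 stood above UT in all 4 libraries grown without nickel, while BMP4 and ATOH8 were not called against UT.

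Whether the members returned to the untreated level was addressed by comparing Ni-W and HCl3 with UT, contrasts that the selection did not test. The rule did keep all Ni-W and HCl3 values above Ni-E, so values far below UT were partly barred, and the split of higher to lower calls is a description. In Ni-W against UT, DESeq2 called 29 of 97 members higher (29.9%) and 1 lower (1.03%), where 11.1% of 15477 tested genes were called higher and 4.95% lower. Among the 10639 selectable genes 6.71% were called higher and 5.83% lower. The median log2 fold change of the members was 0.34, against 0.0058 over all genes tested, and 79 of 97 had a positive value. In HCl3 against UT, 30 members were called higher (30.9%) and 2 lower (2.06%), where 11.4% of 15421 tested genes were called higher and 3.84% lower, with a median of 0.32 against 0.0073 over all genes. Of the selectable genes 6.65% were called higher and 4.62% lower in HCl3. Thus 36 members were called higher than UT in at least 1 of the 2 groups and 3 were called lower. A fall seen only under nickel does not describe those 3 in these libraries, and a return to the untreated level does not describe the 36. The Ni-W libraries replicate 1 clonal population, so their P values do not measure spread between clones. In Ni-W against UT, nickel removal, clone and time in culture cannot be told apart.

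The largest rises in Ni-W were in MAP1LC3A, TNFRSF11B, ID2 and SUSD1. MAP1LC3A, a form of the LC3 protein of autophagosome membranes (chr20:33146501-33148149), had 1.82 and 1.72 RPKM for UT, 0.71 and 0.77 for Ni-E, 12.6 and 10.4 for Ni-W and 14.7 and 16.4 for HCl3. It rose 6.40-fold in Ni-W (log2 2.68 ± 0.25, adjusted P = 2.42e-24) and 8.56-fold in HCl3 (3.10 ± 0.22, adjusted P = 9.46e-41). TNFRSF11B rose 4.79-fold in Ni-W (2.26 ± 0.13, adjusted P = 2.45e-67) and 3.21-fold in HCl3 (1.68 ± 0.13, adjusted P = 1.45e-37). ID2 was 3.26-fold higher in Ni-W (1.70 ± 0.16, adjusted P = 1.40e-23) and 2.24-fold higher in HCl3 (1.16 ± 0.17, adjusted P = 1.13e-10). SUSD1, a sushi-domain membrane protein, had 2.53 and 2.69 RPKM for UT, 1.40 and 1.56 for Ni-E, 8.59 and 8.13 for Ni-W and 7.14 and 8.04 for HCl3, a 3.16-fold rise in Ni-W (1.66 ± 0.16, adjusted P = 7.05e-23).

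In HCl3 the largest rises after MAP1LC3A and TNFRSF11B were in SGK223 and FAM101A. SGK223, a pseudokinase scaffold, had 1.30 and 1.13 RPKM for UT, 0.81 and 0.79 for Ni-E, 2.76 and 3.68 for Ni-W and 3.98 and 4.01 for HCl3 (3.15-fold in HCl3, 1.65 ± 0.17, adjusted P = 1.42e-19). FAM101A, a filamin-interacting protein also known as refilin A, had 3.18 and 2.60 RPKM for UT, 1.31 and 1.67 for Ni-E, 3.77 and 3.99 for Ni-W and 8.54 and 10.2 for HCl3 (3.12-fold in HCl3, 1.64 ± 0.18, adjusted P = 9.70e-18). SGK223 rose in both groups and FAM101A passed the threshold in HCl3. DIO2 was 2.92-fold higher in Ni-W (1.55 ± 0.10, adjusted P = 4.25e-53) and 2.42-fold higher in HCl3, and IGFBP3 2.66-fold higher in Ni-W (1.41 ± 0.10, adjusted P = 1.89e-41) and 1.91-fold higher in HCl3.

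Both wash-out comparisons share the UT libraries. Of the members called higher, 23 were called in both, which is 79.3% of those called in Ni-W and 76.7% of those called in HCl3. The same overlap over all genes called is not given here, so these shares are not read as a trait of the members. The 23 include IGFBP3, TNFRSF11B, MDK, DIO2, ID2, SMAD3, SMAD6, SMAD9, SDC2 and LEPR. In Ni-W but not HCl3 the call was made for FKBP11, NOV, PRTFDC1, VGLL2, WSB1 and ZNF788, and in HCl3 but not Ni-W for CPQ, CRISPLD2, FAM101A, PNPLA4, PPP2R2B, SPOCK1 and THBS1. The direct test of HCl3 against Ni-W did not call PRTFDC1, VGLL2, WSB1, CPQ or THBS1, so for these the calls do not show that the groups differ. Under 12 alternatives the Ni-W call held in 7 for PRTFDC1 and 5 for VGLL2, and the HCl3 call in 7 for CPQ. The SMAD3 rise was 1.68-fold in Ni-W (0.75 ± 0.10, adjusted P = 2.37e-12) and 1.89-fold in HCl3 (0.92 ± 0.09, adjusted P = 2.92e-23). The call for SMAD6 in Ni-W (0.69 ± 0.18, adjusted P = 0.000859) was lost with a correction for GC content and length and without either Ni-W library.

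The members called lower than UT after wash-out were PLAC8 in Ni-W and LINC01085 and CCDC85A in HCl3. PLAC8, a small cysteine-rich protein (chr4:84015307-84035911), had 70.2 and 52.8 RPKM for UT, 24.9 and 24.6 for Ni-E, 44.6 and 38.5 for Ni-W and 44.9 and 45.0 for HCl3. It recovered in part, with all 4 values between the Ni-E and the UT libraries, and its call in Ni-W (1.52-fold lower, -0.60 ± 0.14, adjusted P = 0.000229) was lost with limma, with GC and length correction and without UT replicate 1 or Ni-W replicate 2. LINC01085, a long non-coding RNA, had 1.98 and 2.36 RPKM for UT, 0.55 and 0.54 for Ni-E, 1.75 and 2.05 for Ni-W and 1.13 and 1.29 for HCl3 (-0.90 ± 0.29 in HCl3, adjusted P = 0.00899). CCDC85A, a coiled-coil protein, had 1.65 and 1.99 RPKM for UT, 0.52 and 0.62 for Ni-E, 1.57 and 1.74 for Ni-W and 1.17 and 1.31 for HCl3 (-0.60 ± 0.23, adjusted P = 0.0269). The calls of LINC01085 and CCDC85A in HCl3 were lost with limma, with the replicate block and when any of the 4 libraries of the fit was left out, and that of LINC01085 also with GC and length correction, which gave -0.55 (adjusted P = 0.117).

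**Figure D4:**
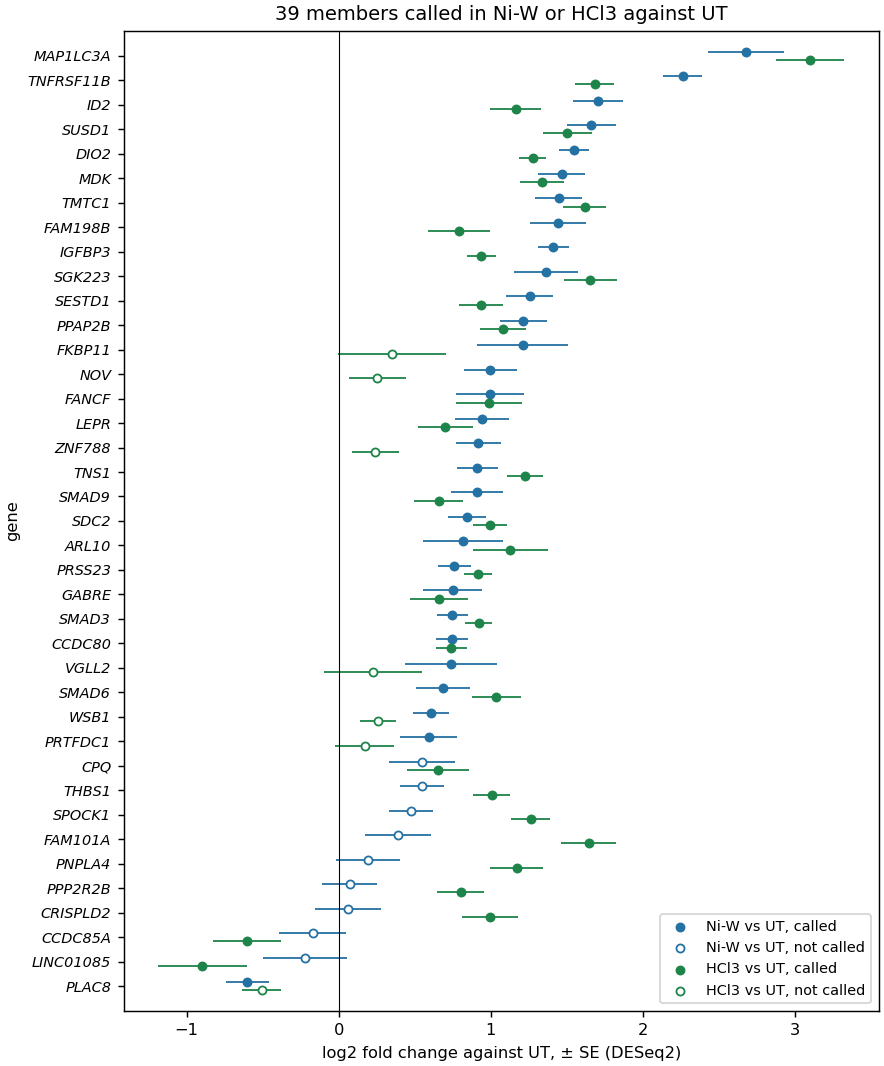
Log2 fold change against UT with its SE (x axis) for the 39 members (y axis) called in Ni-W, in blue, or in HCl3, in green, with filled circles for calls and open circles otherwise. MAP1LC3A lies farthest to the right, at 2.68 and 3.10, and PLAC8, LINC01085 and CCDC85A lie left of 0.

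The remaining 58 members were not called in either comparison with UT. Their log2 fold changes reached at most 0.81 in size, and the median SE over the members was 0.16 in Ni-W and 0.15 in HCl3, so a missed threshold does not show that the untreated level was reached. For BMP4, for example, the change in Ni-W was -0.26 ± 0.14 (adjusted P = 0.147), and for EPHA4 it was 0.28 ± 0.14 (adjusted P = 0.117). LOC100130417 had 1.14 and 1.23 RPKM for UT, 2.19 and 2.03 for Ni-W and 2.20 and 2.11 for HCl3, and its few reads gave an SE of 0.57 in Ni-W.

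Whether the 2 groups grown without nickel differ from each other was tested directly. DESeq2 called 6 members higher in HCl3 than in Ni-W and 5 lower, which is 6.19% and 5.15% of the members, where 3.18% of 14605 tested genes were called higher and 1.72% lower. Among the 10639 selectable genes 2.03% were called higher and 0.705% lower. The median log2 difference of the members was -0.037. FAM101A had 3.77 and 3.99 RPKM for Ni-W and 8.54 and 10.2 for HCl3 (log2 difference 1.26 ± 0.15, adjusted P = 1.66e-14). PNPLA4, a lipid hydrolase of the patatin family, had 2.62 and 2.75 RPKM for Ni-W and 5.35 and 5.33 for HCl3 (0.98 ± 0.15, adjusted P = 1.20e-08), and CRISPLD2, a secreted glycoprotein, had 1.45 and 1.55 for Ni-W and 2.95 and 2.85 for HCl3 (0.94 ± 0.16, adjusted P = 3.46e-07). In the other direction, FKBP11, a peptidyl-prolyl isomerase of the secretory pathway, had 6.96 and 5.55 RPKM for Ni-W and 4.04 and 2.78 for HCl3 (-0.86 ± 0.28, adjusted P = 0.0152). NOV (-0.74 ± 0.14, adjusted P = 1.13e-05) and ZNF788 (-0.67 ± 0.12, adjusted P = 1.55e-06) were also lower in HCl3. The FKBP11 call was lost without either Ni-W library, without HCl3 replicate 2, with limma and with the replicate block (adjusted P = 0.107), and 7 members were called when HCl3 replicate 2 was left out.

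Gene lists drawn up for the pathways of this tissue and treatment placed the members in context. Of 35 lists, 12 held at least 1 member and 23 held none, and in all 18 members were in a list among 1365 selectable list genes (1.32%, against 0.912% of all selectable genes). Beyond TGF-beta, YAP and TEAD target genes held 2 members of 21 selectable genes, CCDC80, a matrix-associated protein, and IGFBP3. In Ni-E, 6 of 22 tested genes of this list were called lower, where 2.1% of all genes tested were called lower. The median log2 fold change of the list was -0.36 against -0.0024 over all genes. Those 6 and the median include both members, which were selected on this contrast. The lists were also chosen with results of these data known, so both values are a description. RBMS3 of that list, an RNA-binding protein that is no member, had 2.10 and 2.41 RPKM for UT and 1.40 and 1.34 for Ni-E (-0.77 ± 0.18, adjusted P = 0.000349). CCDC80 had 16.4 and 17.2 RPKM for UT, 7.41 and 11.1 for Ni-E, 29.6 and 28.4 for Ni-W and 28.3 and 30.1 for HCl3.

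Among the actin and smooth-muscle contractile genes TAGLN was the only member of 34 selectable genes. Of the 40 tested, 3 were called lower in Ni-E, the member TAGLN among them, and 3 higher. Over all genes tested 2.1% were called lower and 3.84% higher. The median log2 fold change of the list, which includes TAGLN, was -0.25 against -0.0024 over all genes. ACTA2, smooth-muscle actin, rose from 0.48 and 0.42 RPKM for UT to 2.72 and 1.71 for Ni-E (2.27 ± 0.42, adjusted P = 4.63e-06), and so moved opposite to TAGLN. BIRC3, an inhibitor of apoptosis, and TNFRSF11B came from the inflammatory and NF-kappaB list, of which 2 of 25 tested genes were called lower and 4 higher. The 2 called lower were these members themselves, selected on this contrast. BIRC3 had 12.8 and 13.6 RPKM for UT, 8.39 and 7.95 for Ni-E, 13.9 and 14.0 for Ni-W and 15.2 and 13.4 for HCl3, with log2 differences from UT of 0.02 ± 0.11 in both groups. The semaphorin and ephrin list held EPHA4 and SEMA3C, the splicing list HNRNPH1, the focal adhesion list CAV1 and the annexin and S100 list S100A10, each 1 or 2 of between 16 and 42 selectable genes. THBS1 was 1 of 38 selectable matrix genes, IGFBP3 1 of 9 insulin-like growth factor genes, and the 3 ZNF members came from 324.

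Lists with no member include the integrated stress response, in which 18 of 37 tested genes were called higher in Ni-E, and the p53 targets (11 of 21 higher). The hypoxia-inducible genes (6 of 28 higher) and the immediate early genes (10 of 32 higher) held none either. Over all 14140 genes tested 3.84% were called higher. Some other lists without a member had few or no higher calls, such as the NRF2 targets (1 of 17), iron handling (0 of 16) and the cell cycle (0 of 42). No member was found among 42 selectable cell cycle and replication genes, 33 cholesterol and fatty acid synthesis genes, 79 cytosolic ribosomal proteins and 29 iron- and oxoglutarate-dependent dioxygenases. Members were 0.912% of all selectable genes, so finding none in lists of these sizes is near the background and nothing is read from it. Some genes outside the members were higher in the same Ni-E libraries. CHAC1, a glutathione-degrading enzyme of the stress response, had 8.36 and 7.24 RPKM for UT and 24.2 and 23.1 for Ni-E (1.54 ± 0.15, adjusted P = 2.66e-20).

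The members were spread over the genome. Chromosome 5 held 13 of them, 2.59% of its 501 selectable genes against 0.912% of all selectable genes, and chromosomes 21 and 22 held 0 of 107 and 0 of 265. Within 100 kb of each other lay 4 pairs of members, IL7R and CAPSL, RGMB and RGMB-AS1, SAMD9 and SAMD9L, and SDC2 and CPQ. SAMD9 and SAMD9L, paralogs known as antiviral restriction factors, lie 12 kb apart, with 12.0 and 13.3 RPKM for UT and 5.63 and 7.33 for Ni-E for SAMD9 and 3.5 and 4.01 for UT and 1.49 and 2.20 for Ni-E for SAMD9L. The transcripts of the members had a median GC content of 44.3% against 47.5% for selectable genes and a median length of 4824 against 3863 bases. Over 13467 genes the change in Ni-E against UT correlated with GC content (Spearman's rank correlation of 0.35, a description across genes that share their libraries). The same correlation was 0.34 for HCl3 against Ni-W, 0.27 for HCl3 against UT and 0.071 for Ni-W against UT. When counts were corrected for GC content and length 78 of the 97 members still met the rule.

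RefSeq promoters (GRCh38.p14, from 250 bases before to 50 after the start) could be matched for 75 of the 97 members. Motifs were searched on both strands as given letters. The hypoxia response element core ACGTG was found in 34.7% of member promoters, 27.9% of those of 8786 selectable genes and 21.6% of all 27305 promoters, and the metal response element core TGCNCNC in 57.3, 63.7 and 55.2%. The AP-1 site TGANTCA was found in 5.33, 4.17 and 7.76%, the TEAD site GGAATG in 13.3, 10.6 and 14.1%, the E-box CACGTG in 10.7, 10.6 and 7.43%, the TATA box TATAAA in 6.67, 4.76 and 11.9%, and the ETS site CCGGAAG in 6.67, 21.4 and 10.7%. The GC box GGGCGG was found in 60, 72.8 and 44.6%, the CCAAT box in 29.3, 37.7 and 35.7%, and the cAMP response element TGACGTCA in 2.67, 3.44 and 1.98%. The CArG box, read by serum response factor in contractile genes, was found in 2.67% of member promoters (2 of 75), 0.967% of selectable and 1.28% of all. TAGLN is among the members without a matched promoter, so these shares do not cover it. These shares describe letters in a short window and not binding.

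The windows below, each with 15 bases on either side of the motif, are 5 examples picked after the matches were seen, both CArG box matches and 3 of the TATA box and AP-1 matches before the start, with the motif in capitals. FILIP1L, a filamin A-interacting protein (minus strand, chr3:99876209-99876248), and PLAC8 (minus strand, chr4:83114865-83114904) carry the CArG box at 60 and 160 bases before the start. IL7R (plus strand, chr5:35856847-35856882) carries a TATA box 29 bases before it. RGMB (plus strand, chr5:98768382-98768418) and SP140L (plus strand, chr2:230327133-230327169) carry an AP-1 site, as do SAMD9L and DIO2 among the 75.
FILIP1L: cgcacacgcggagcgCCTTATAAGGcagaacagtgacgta
PLAC8: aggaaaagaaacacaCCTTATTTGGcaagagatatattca
IL7R: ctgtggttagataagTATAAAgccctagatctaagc
RGMB: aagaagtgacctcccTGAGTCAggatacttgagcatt
SP140L: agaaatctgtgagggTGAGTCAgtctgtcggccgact
FILIP1L had 26.2 and 30.7 RPKM for UT, 15.2 and 17.2 for Ni-E, 29.7 and 34.1 for Ni-W and 28.9 and 29.0 for HCl3, with no call against UT, while PLAC8, with the same kind of motif, was the member called lower in Ni-W. SP140L, a chromatin-binding relative of SP140, had 3.5 and 3.75 RPKM for UT, 2.45 and 2.45 for Ni-E, 4.74 and 4.12 for Ni-W and 5.47 and 5.25 for HCl3.

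The limit of the rule fell among genes of like behaviour. Just inside it were SGK223 (ratio 0.717), IL7 (0.719) and CAPSL (0.72), and just outside were ZBTB18, ARNT2 and MIR3064 (0.722, 0.722 and 0.724). CAPSL had 1.75 and 1.41 RPKM for UT, 0.58 and 0.90 for Ni-E, 2.32 and 1.98 for Ni-W and 1.25 and 1.84 for HCl3. ZBTB18, a transcriptional repressor, had 14.7 and 18.5 RPKM for UT, 10.2 and 10.3 for Ni-E, 17.2 and 21.4 for Ni-W and 17.1 and 14.3 for HCl3. The mirror rule, Ni-E at least as far above all 6 other libraries, gave 171 genes. The smallest of the 6 values that set the limit was a UT library for 75 members, and the larger Ni-E value was replicate 2 for 64. Without Ni-E replicate 2 the rule gave 265 genes, with all 97 among them.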

How the data were processed

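RNA-Seq libraries (TruSeq) were taken from BEAS-2B cells in 4 groups of 2, described by the study as biological replicates. With STAR 2.4 the authors mapped reads to hg19, dropped those that mapped to more than 1 place, and deposited read counts and RPKM values per RefSeq gene and library. The rule and the levels used the deposited RPKM. Counts were tested in R 4.3.3 with DESeq2 1.42.0 (two-sided Wald test, Benjamini-Hochberg adjustment over all genes tested), 4 libraries to a fit, after the thresholds of the study. With 2 libraries a group, adjusted P values rest on a spread shared across genes. Total counts of at least 26383920 set the depth. Alternatives used edgeR 4.0.16, limma 3.58.1 on log2(RPKM + 1), TMM, a mean count of at least 10, 1 fit of 8 libraries, replicate blocks, GC and length correction (GENCODE transcripts) and each library left out. The code was tested on simulated data. Python 3.11.15 and matplotlib 3.10.9 made the plots. The members, roles and lists were chosen with earlier results of these data known. Named genes were list members, the 8 lowest ratios, the 6 highest in UT, genes at the limit and the largest calls. Others were named by role after their values were seen. ChIP-Seq data of the study were not analysed here. The result of 1 gene list is not reported here.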

Additional observations from a re-analysis of the deposited data

Results flagged for a closer look

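With 2 libraries in each group, no test for a library far from the others was possible. Members whose level differed between the 2 groups grown without nickel, by the direct DESeq2 test of HCl3 against Ni-W, were looked at again. Each had its 2 HCl3 values on the same side of both Ni-W values. The log2 differences (HCl3 minus Ni-W) were 1.26 for FAM101A, 0.98 for PNPLA4, 0.94 for CRISPLD2, 0.79 for SPOCK1, a secreted proteoglycan, 0.73 for PPP2R2B, a regulatory subunit of protein phosphatase 2A, and 0.64 for SAMD9L. They were -0.86 for FKBP11, -0.74 for NOV, -0.67 for ZNF788, -0.64 for FAM198B and -0.64 for HNRNPU-AS1. The calls of FAM198B and HNRNPU-AS1 were lost with GC and length correction. The labels give the HCl3 libraries experiment numbers that Ni-W lacks, so experiment and population cannot be told apart.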

How the results depend on the processing

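Of the 97 members, 66 met a ratio limit of 0.67, 203 genes met 0.8, 128 met a minimum RPKM of 0.5 and 70 a minimum of 2. Leaving out a library gave between 99 and 265 genes. Size-factor-scaled counts gave 119 genes, 93 of them members. The rule placed every member lower in Ni-E than in UT and so favoured small P values in that contrast. Nothing is therefore read from the direction or the unadjusted P that limma gave for the members there. Of members called lower in Ni-E against UT (84), edgeR called 94, limma 0 (limma fitted 97 of 97 lower, all 97 at an unadjusted P under 0.05, and called 0 of all genes) and leave-one-out fits 54 to 62. Calls in Ni-W (30) were 24 to 30 and in HCl3 (32) 24 to 32 with a library left out. Calls between HCl3 and Ni-W (11) were 7 to 14, and 6 with limma. The median log2 fold change of the members was 0.28 to 0.34 in Ni-W and 0.29 to 0.37 in HCl3 with a library left out. No call in the wash-out comparisons changed sign under any of 12 alternatives, and 20 of 30, 23 of 32 and 5 of 11 calls held under all of them. Deviations of same-suffix libraries correlated at 0.21 for Ni-W and UT and between -0.14 and -0.05 in the other comparisons. Whether the suffix pairs the samples cannot be told from these values. With the suffix as a replicate block the calls were 70 in Ni-E, 28 in Ni-W, 28 in HCl3 and 10 between HCl3 and Ni-W. Crossed replicate blocks, added after the data were seen, gave 75 calls in Ni-E and 29 in HCl3. The lowest count behind a member's value was 3 reads (LOC100130417), which limits that gene.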
